A study of Mus musculus with 16 samples.

Results

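Oxidised low-density lipoprotein (oxLDL) was given to macrophages that also received tirzepatide, and these cells are compared here with cells given tirzepatide alone. The comparison took 8 of the 16 RNA-sequencing libraries of the series, chosen by their labelled treatment: 4 libraries labelled oxLDL and tirzepatide (the combination) and 4 labelled tirzepatide. All were made from RAW264.7, a mouse line of macrophage-like cells grown from a leukaemia tumour, in high-glucose medium with serum, and the labels name no genetic change. Tirzepatide was given at 100 nmol/ml as labelled in both groups, and oxLDL at 50 µg/ml in the combination only. By their labels the groups thus differ in oxLDL alone, and they hold no untreated cells. How long the treatments lasted is not labelled, nor is it said that libraries of 1 group are separate cultures, so the spread behind each p-value may be technical. The question the comparison answers is what oxLDL does to macrophage transcripts while tirzepatide is present.

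OxLDL is the modified lipoprotein that macrophages of the artery wall take up through scavenger receptors. The cholesterol they take in is freed in lysosomes, stored as ester in lipid droplets and exported by ABC transporters, and cells that store much of it are called foam cells. Oxidised lipids also act on NRF2, the transcription factor of the antioxidant response, and on nuclear receptors for lipids, namely PPARs and LXRs. Tirzepatide, a peptide used against diabetes and obesity, is an agonist at the GIP and GLP-1 receptors, which signal through cyclic AMP.

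Library totals ran from 15877278 to 16880487 counts in the combination and from 15935777 to 17336019 with tirzepatide alone. Each of the 10 macrophage markers looked for was present, and their summed level was 22380 to 24650 TPM in the combination and 21290 to 22170 TPM with tirzepatide, where TPM is a transcript abundance scaled for length and for the library's total. Transcripts of pancreatic acinar cells, which a macrophage line should lack, summed over 30 markers to 8.92 to 65.0 TPM in the combination and 8.85 to 70.4 TPM with tirzepatide, and none of the 14 tested was called by edgeR or DESeq2 or had an unadjusted p under 0.05. Mitochondrially encoded genes took 10.5%, 9.37%, 8.38% and 8.10% of counts in combination libraries 1 to 4 and 8.18% to 8.67% with tirzepatide, and their part in the results was not tested. In RNA from whole cultures, a change in the share of cells that express a gene and a change in RNA per cell cannot be told apart.

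One library stood apart in the outcome itself. Combination library 2 held many of the genes that oxLDL moved in combination libraries 1, 3 and 4 at the level of tirzepatide alone, so results are given with and without it. Over the 444 genes called without it, library 2 had a median position of 0.204 on a scale where 0 is the tirzepatide mean and 1 the mean of the other combination libraries (log2 CPM), and 110 of the genes (24.8%) lay past the midpoint. Each of the other combination libraries was then held out together with library 2, and the remaining combination libraries set the scale. Libraries 1, 3 and 4 had median positions of 0.960, 0.742 and 0.853 over 244, 384 and 334 genes called without both. On the same genes library 2 had medians of 0.115, 0.218 and 0.182. Held-out tirzepatide libraries had medians of -0.074 to 0.1499. Library 2 was also set beside the control group of the series at Txnip and Klf10, both from the fixed genes of the naming rule. Its Txnip, which encodes a regulator of glucose uptake and redox state, stood at 1033 TPM against 968.1 to 981.6 with tirzepatide and a mean of 709.5 ± 47.3 (SD, n = 4) in the control group of the series. Its Klf10, a Kruppel-like transcription factor, stood at 86.3 TPM against 74.4 to 77.4 with tirzepatide and 52.7 ± 2.49 (SD, n = 4) in control. In combination libraries 1, 3 and 4 the log2 change from tirzepatide was -0.13 (SE 0.04) for Txnip and 0.03 (SE 0.05) for Klf10. What sets library 2 apart was not tested.

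OxLDL changed the transcripts of macrophages given tirzepatide in both directions, and most changes were small. Il1b and Ptgs2 of inflammation, the AP-1 gene Fos, 7 of 26 antioxidant genes driven by NRF2 and the lipid droplet gene Plin2 rose, while 8 of 27 interferon-stimulated genes, the cholesterol exporters Abca1 and Abcg1, the desaturase Scd2, Tnf and the chemokines Ccl3, Ccl4 and Ccl5 fell. With all libraries, 174 of 11319 genes tested (1.54%) passed an adjusted p of 0.05 by edgeR and are termed called, 86 higher (0.76%) and 88 lower (0.777%). Without combination library 2, 444 of 11406 genes (3.89%) were called, 214 higher (1.88%) and 230 lower (2.02%). The 2 lists shared 172 genes with the same direction. The 2 that were called only with library 2 were Slc25a16 and H2-Eb1, named after their values were seen. Among called genes the median size of the log2 change was 0.33 with all libraries and 0.29 without library 2, while the median log2 change over all genes tested was near 0 (-0.0004 and -0.0008). More than a doubling was seen for 5 called genes with all libraries and 15 without library 2, and a fall to under a 2-fold lower level for 3 and 6. TPM did not overlap between the groups for 112 of the 174 and for 401 of the 444. The called genes were chosen for a group difference, and groups with fewer libraries part more readily. The share over all genes tested was not counted, so these 2 counts are a description only. The count rests on each library: without combination library 1, 3 or 4 it was 64, 93 or 58, and without tirzepatide library 2, 3 or 4 it was 102, 98 or 94. Calls near the threshold moved with it, and Scd1, B2m, Nos2, Trem2, Gclm, Srebf2 and Mttp lost theirs in 10 to 14 of 35 or 36 alternatives, each of them when any of several single libraries was left out. Ptgs2, Dusp5, Egr1 and Ccl5 lost theirs in 7 or 8, among them combination library 1 or 4 left out.

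**Figure D1:**
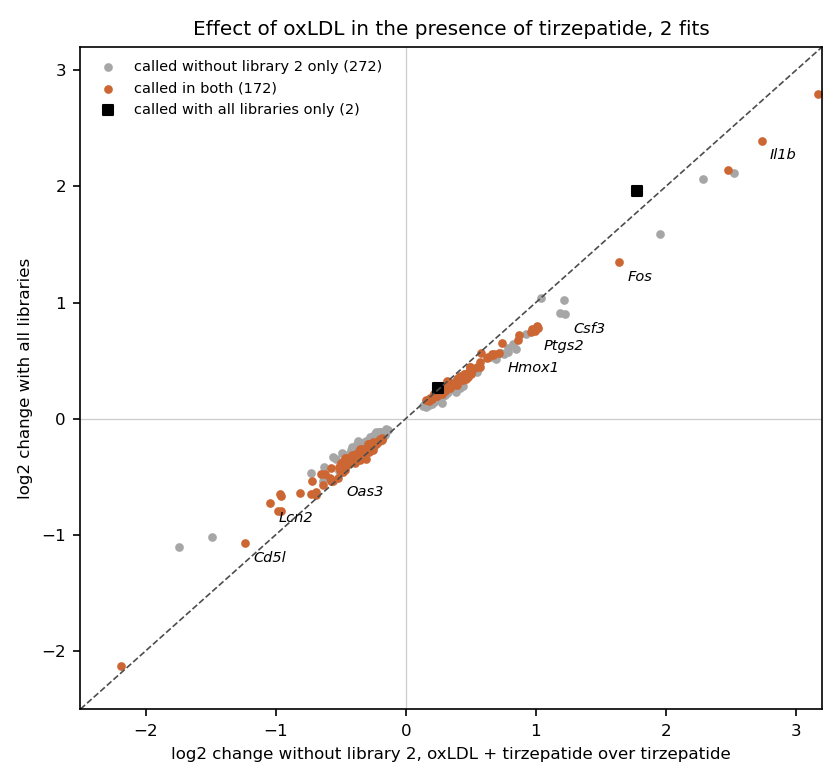
Log2 change of oxLDL with tirzepatide over tirzepatide without combination library 2 (x axis) and with all libraries (y axis), for every gene called in either fit; the dashed line marks equal values and 2 called genes outside the axes are left out. For 436 of the 446 genes the value is nearer to 0 when library 2 is included, as for Il1b (2.39 against 2.74), while Oas3 lies close to the line (-0.51 against -0.52). Of the 446, 272 were called only without library 2, so the count of 436 follows in part from how the genes were chosen. No like count was made for another library.

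Cytokines and chemokines moved in opposite directions. Of 23 tested, 1 rose and 5 fell with all libraries, and 3 rose and 5 fell without library 2 (median log2 changes -0.21 and -0.35). Il1b, which encodes the pyrogenic cytokine interleukin-1 beta, stood at 3.72, 3.48, 4.03 and 3.38 TPM with tirzepatide and at 23.2, 3.91, 25.9 and 23.4 TPM in combination libraries 1 to 4. Libraries 1, 3 and 4 held over 5 times the tirzepatide level and library 2 lay within the tirzepatide range, so the groups overlapped through that library alone. The log2 change was 2.39 (SE 0.35, adjusted p = 0.00106 by edgeR), and 2.74 (SE 0.18, adjusted p = 2.9e-10 by edgeR) without library 2. Csf3, the growth factor of granulocytes, stood at 3.91, 5.38, 4.29 and 3.87 TPM with tirzepatide and 8.43, 1.92, 10.8 and 11.2 TPM in the combination. Library 2 had the lowest Csf3 of all 8, and the change passed only without it (log2 1.23, SE 0.21, adjusted p = 0.000514, against 0.173 with all libraries, by edgeR). Il11, a cytokine of the interleukin-6 family named after its values were seen, lay at 0.681 to 0.721 TPM with tirzepatide and at 2.12, 0.691, 4.28 and 3.31 TPM in the combination (log2 2.14, SE 0.43, adjusted p = 0.00803 by edgeR, and 2.47, SE 0.34, without library 2).

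Tnf, the gene of tumour necrosis factor, fell. Its levels were 157, 156, 151 and 172 TPM with tirzepatide and 108, 149, 122 and 116 TPM in the combination, where all libraries lay below all tirzepatide libraries and library 2 was the nearest to them. The log2 change was -0.34 (SE 0.07, adjusted p = 0.00602 by edgeR) and -0.45 (SE 0.05) without library 2. Ccl3, a chemokine for monocytes, stood at 395, 418, 406 and 479 TPM and at 264.6, 380, 286 and 269 TPM (log2 -0.48, SE 0.08, and -0.62, SE 0.06). Its neighbour in function Ccl4 fell by 0.54 on the log2 scale (SE 0.11) and by 0.72 (SE 0.09) without library 2. Ccl5, a chemokine for T cells, stood at 12.9, 16.9, 17.4 and 18.9 TPM with tirzepatide and at 8.01, 12.6, 7.88 and 8.86 TPM in the combination. The groups did not overlap, with library 2 just under the lowest tirzepatide library, and the log2 change was -0.80 (SE 0.19, adjusted p = 0.031 by edgeR) and -0.98 (SE 0.20, adjusted p = 0.00344 by edgeR) without it. Ccl2, the main attractant of monocytes, did not pass in either fit, at log2 -0.56 (SE 0.24, adjusted p = 0.283) and, without library 2, -0.80 (SE 0.24, adjusted p = 0.0682) by edgeR. Il6 did not pass either (log2 0.56, SE 0.39, adjusted p = 0.547 by edgeR), with 0.993 to 3.17 TPM in the tirzepatide libraries and 1.89 to 2.57 TPM in the combination. Cxcl2, a chemokine for neutrophils, stood at 269.6 to 306.9 TPM with tirzepatide and at 209, 196, 290 and 300.3 TPM in the combination, with log2 changes of -0.17 (SE 0.09, adjusted p = 0.385 by edgeR) and -0.08 (SE 0.08) without library 2.

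Genes of prostaglandin synthesis split in the same way. Ptgs2, the inducible cyclooxygenase, stood at 101, 108, 108 and 108 TPM with tirzepatide and at 191, 79.9, 222 and 216 TPM in the combination. Library 2 lay below every tirzepatide library while the others were far above them, and the log2 change was 0.75 (SE 0.17, adjusted p = 0.0165 by edgeR) and 0.99 (SE 0.06, adjusted p = 1.38e-10 by edgeR) without it. Ptgs1, the constitutive cyclooxygenase, fell in all 4 combination libraries, from 206 to 219 TPM to 169, 192, 179 and 177 TPM (log2 -0.23, SE 0.04, and -0.26, SE 0.04, without library 2). Hpgds, the synthase of prostaglandin D2, rose (log2 0.56, SE 0.11, and 0.66, SE 0.11). Those 3 were the called members of the 12 tested in both fits.

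Markers of the M1 state, the classical inflammatory activation of macrophages, had 2 called higher and 3 lower of 17 in both fits. The 2 that rose were Il1b and Ptgs2, and the 3 that fell were Tnf, Ccl5 and Nos2. Nos2, the inducible nitric oxide synthase, stood at 60.9, 61.4, 61.6 and 74.8 TPM with tirzepatide and at 42.5, 57.9, 52.3 and 46.6 TPM in the combination, with no overlap (log2 -0.36, SE 0.09, adjusted p = 0.0387 by edgeR, and -0.44, SE 0.09, without library 2). Markers of the M2 state had 0 of 9 called by edgeR with all libraries (5 at an unadjusted p under 0.05, all lower; 1 by DESeq2) and 3 lower without library 2. Textbook M2 genes gave no usable signal, since Arg1 had at most 2 counts and Mrc1 at most 1 count in any library of either group. Of 18 feedback genes of NF-kB, the factor that drives much of the inflammatory response, 0 rose and 1 fell with all libraries, and 0 and 7 without library 2. Tnip1, which restrains NF-kB signalling, fell in both fits (log2 -0.27, SE 0.06, and -0.34, SE 0.06). Ikbke, an inducible kinase of the pathway, stood at 28.0 to 32.8 TPM with tirzepatide and 19.4, 35.6, 19.8 and 23.01 TPM in the combination, and passed only without library 2 (log2 -0.72, SE 0.08, adjusted p = 9.16e-07, against 0.0514 with all libraries, by edgeR). Nfkbiz, an inducible IkB protein, likewise passed only then (log2 -0.20, SE 0.04).

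Lcn2, which encodes lipocalin-2, an iron-trapping protein of innate defence, had one of the largest falls among abundant genes. It stood at 632, 648, 572 and 568 TPM with tirzepatide and at 248, 570, 310 and 314 TPM in the combination. Library 2 lay within the tirzepatide range. The log2 change was -0.73 (SE 0.15, adjusted p = 0.00924 by edgeR) and -1.04 (SE 0.08, adjusted p = 7.99e-09 by edgeR) without library 2. Clec4e and Clec4d, C-type lectin receptors that sense damaged cells and microbial glycolipids, rose. Clec4e stood at 20.3, 19.4, 22.5 and 22.3 TPM and at 40.7, 23.4, 38.8 and 37.5 TPM, without overlap (log2 0.72, SE 0.11, adjusted p = 0.00106 by edgeR, and 0.87, SE 0.07, without library 2). Clec4d stood at 240, 232, 230 and 212 TPM and at 359, 234, 350 and 371 TPM, and overlapped through library 2 (log2 0.55, SE 0.09, and 0.68, SE 0.06, without it).

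Early response genes, which cells switch on within minutes of a signal, divided as well. Of 26 AP-1 and EGR genes 2 rose and 2 fell with all libraries, and 3 rose and 5 fell without library 2. Fos, a subunit of the factor AP-1, stood at 9.17, 11.04, 10.8 and 8.82 TPM with tirzepatide and at 24.8, 8.45, 33.9 and 33.7 TPM in the combination. Library 2 was the lowest of all 8, and the log2 change was 1.35 (SE 0.23, adjusted p = 0.00246 by edgeR) and 1.64 (SE 0.11, adjusted p = 2.9e-10 by edgeR) without it. Dusp5, a nuclear phosphatase that switches off ERK, rose by a log2 change of 0.78 (SE 0.18) and 1.01 (SE 0.11). Egr1, a zinc-finger early response factor, fell instead, from 8.14, 8.32, 7.43 and 9.43 TPM to 5.59, 6.26, 7.20 and 6.12 TPM. Library 2 was among the combination libraries for Egr1, whose log2 change was -0.39 in both fits (SE 0.08 and 0.09, adjusted p = 0.0162 and 0.0167 by edgeR). Ier5, another early response gene, fell likewise (log2 -0.28, SE 0.06, and -0.30, SE 0.07).

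Genes tied to cyclic AMP had 1 of 18 called, higher, with all libraries and 3 without library 2. Crem, a transcription factor of the cyclic AMP response, stood at 13.7, 13.5, 16.5 and 13.7 TPM with tirzepatide and at 27.4, 11.96, 29.9 and 31.5 TPM in the combination, with library 2 the lowest of all (log2 0.79, SE 0.17, and 1.01, SE 0.11). Nr4a2, an orphan nuclear receptor, passed only without library 2 (log2 0.70, SE 0.18, adjusted p = 0.0239, against 0.217 with all libraries, by edgeR). The receptors of tirzepatide were near or below detection. Glp1r had 0 to 2 counts a library, and Gipr had 37 to 68 counts a library and did not pass (log2 0.35, SE 0.22, adjusted p = 0.504 by edgeR). Odc1, the first enzyme of polyamine synthesis and one of the most abundant responders, stood at 2771, 2909, 2949 and 3116 TPM with tirzepatide and at 4769, 2685, 5541 and 5594 TPM in the combination. Library 2 again lay below the tirzepatide libraries (log2 0.68, SE 0.12, and 0.87, SE 0.04).

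**Figure D2:**
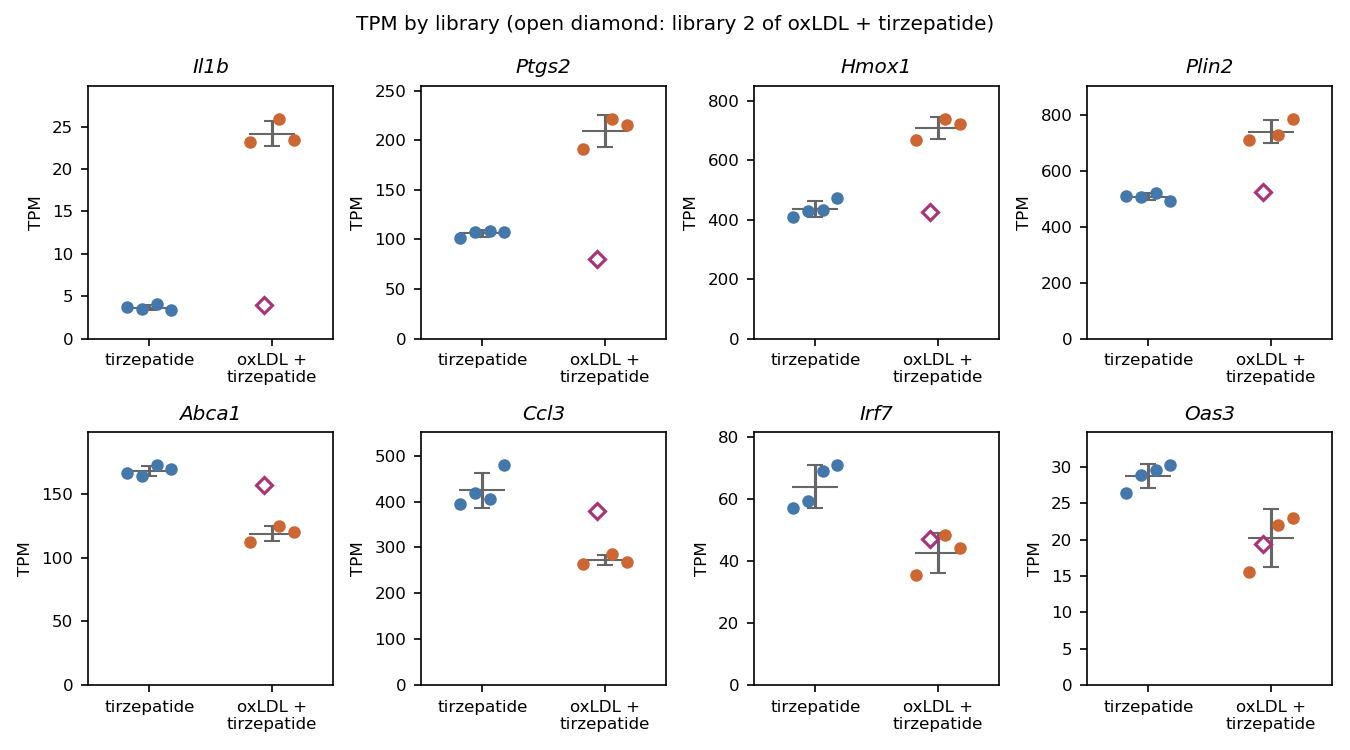
TPM of 8 genes in each library of tirzepatide (left in each panel) and of oxLDL with tirzepatide (right), with the open diamond for combination library 2; bars show the mean ± SD of the 4 tirzepatide libraries and of combination libraries 1, 3 and 4. The diamond lies at or below the tirzepatide points for Il1b, Ptgs2 and Hmox1, near them for Plin2, between the groups for Abca1 and Ccl3, and among the other combination points for Irf7 and Oas3.

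Antioxidant genes driven by NRF2 rose. Of 26 tested, 7 rose and 0 fell with all libraries, and 11 rose and 1 fell without library 2. The median log2 change was 0.12 and 0.14. Hmox1, the haem oxygenase, stood at 409, 431, 435 and 472 TPM with tirzepatide and at 668, 425, 740 and 722 TPM in the combination. Library 2 lay within the tirzepatide range and the others well above it (log2 0.57, SE 0.10, adjusted p = 0.00234 by edgeR, and 0.72, SE 0.04, without library 2). Slc7a11, the cystine importer that feeds glutathione synthesis, stood at 118, 110, 111 and 113 TPM and at 153, 116, 151 and 152 TPM (log2 0.39, SE 0.07, and 0.48, SE 0.06). Esd, an esterase that acts on glutathione conjugates, stood at 1295, 1286, 1313 and 1222 TPM and at 1672, 1268, 1735 and 1782 TPM (log2 0.36, SE 0.07, and 0.45, SE 0.04). Gclm, the regulatory subunit of the enzyme that starts glutathione synthesis, rose (log2 0.29, SE 0.07, adjusted p = 0.0374 by edgeR, and 0.39, SE 0.05). Txnrd1, the thioredoxin reductase, and Prdx1, a peroxiredoxin, passed only without library 2 (log2 0.18, SE 0.05, and 0.31, SE 0.07). Slc40a1, the iron exporter ferroportin, also passed only without library 2 (log2 0.73, SE 0.12). The member that fell without library 2 was Gpx1, a glutathione peroxidase (log2 -0.32, SE 0.06).

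NRF2 binds the antioxidant response element, whose core is written TGACNNNGC, where N is any base. The core was searched on both strands of the 250 bases before the RefSeq starts (GRCm38.p6) of the 11 NRF2 targets that rose without library 2, of which 9 had a sequence to search. It was present in 3 of the 9 (33.3%), and in 10.2% of all 32851 promoters of that length. The first share counts a gene with several starts once, and the second counts every start. Windows around the 3 matches are shown because they are the members whose upstream sequence holds the core; in each the match lies on the strand opposite to the gene and is in capitals. They lie at chr3:122245393-122245461 for Gclm, chr10:82859084-82859152 for Txnrd1 and chr4:116685436-116685504 for Prdx1, all with the gene on the plus strand, and the match begins 134, 92 and 133 bases before the start.
Gclm: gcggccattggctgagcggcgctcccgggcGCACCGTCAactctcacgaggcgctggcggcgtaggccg
Txnrd1: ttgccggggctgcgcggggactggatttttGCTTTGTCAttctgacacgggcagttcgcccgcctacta
Prdx1: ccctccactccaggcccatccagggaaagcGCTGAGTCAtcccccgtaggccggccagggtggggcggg
A match describes the letters only. The palindrome TGACGTCA, the cyclic AMP response element, was in 0 of 15 upstream sequences searched among the 20 higher genes named by size of change, and in 1.55% of all promoters.

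Plin2, Hilpda and Cpt1a were the only called members among genes of lipid storage and PPAR targets with all libraries, while cholesterol exporters and desaturases fell. The list of PPAR targets and lipid droplet genes had 24 members tested, of which 3 rose and 0 fell with all libraries, and 3 and 1 without library 2 (median log2 changes 0.04 and 0.03). Plin2, the coat protein of lipid droplets, stood at 509, 506, 520 and 490 TPM with tirzepatide and at 708, 524, 727 and 785 TPM in the combination. Library 2 lay just above the highest tirzepatide library, so the groups did not overlap (log2 0.44, SE 0.07, adjusted p = 0.00234 by edgeR, and 0.55, SE 0.05, without library 2). Hilpda, an inhibitor of droplet lipolysis, stood at 20.6, 25.7, 23.9 and 24.4 TPM and at 43.3, 21.4, 47.3 and 50.9 TPM (log2 0.80, SE 0.17, and 1.01, SE 0.12). Cpt1a, which passes fatty acids into mitochondria for oxidation, stood at 29.6, 31.0, 32.1 and 32.0 TPM and at 41.5, 33.8, 43.3 and 41.5 TPM, without overlap (log2 0.38, SE 0.07, and 0.45, SE 0.06, without library 2). Mttp, which loads lipid onto lipoproteins, rose from 4.06 to 4.36 TPM to 6.52, 4.42, 6.38 and 6.65 TPM (log2 0.55, SE 0.14, and 0.67, SE 0.13, without library 2).

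Of 18 LXR targets and genes of cholesterol efflux, 0 rose and 4 fell with all libraries, and 0 and 6 without library 2. Abca1, the exporter of cholesterol to lipid-poor apolipoprotein A-I, stood at 167, 164, 173 and 170 TPM with tirzepatide and at 113, 157, 125 and 120 TPM in the combination. Every combination library lay below every tirzepatide library, library 2 by the least (log2 -0.37, SE 0.06, adjusted p = 0.00238 by edgeR, and -0.49, SE 0.04, without it). Abcg1, the exporter to high-density lipoprotein, stood at 195, 210, 223 and 214 TPM and at 128, 203, 157 and 140 TPM, and overlapped through library 2 (log2 -0.42, SE 0.08, and -0.58, SE 0.05). Scd2, a fatty acid desaturase, stood at 234, 232, 236 and 272 TPM and at 144, 228, 148 and 150 TPM (log2 -0.47, SE 0.09, and -0.65, SE 0.04). Its close copy Scd1 was called lower too (log2 -0.65, SE 0.17, adjusted p = 0.0464 by edgeR, and -0.97, SE 0.13, without library 2), but its TPM overlapped between the groups even without library 2, and reads shared by the 2 copies were assigned by the authors' estimate. Srebf1, the factor that drives fatty acid synthesis, passed only without library 2 (log2 -0.44, SE 0.08, adjusted p = 0.00235, against 0.0698 with all libraries, by edgeR).

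Genes that make cholesterol and receptors that take up modified lipoprotein held few calls or none. Of 22 genes of cholesterol synthesis tested, 0 rose and 1 fell, with all libraries and without library 2. It was Srebf2, the factor that drives them (log2 -0.30, SE 0.07, and -0.33, SE 0.08). At an unadjusted p under 0.05, 3 of the 22 were lower and 0 higher, or 5 and 0 without library 2. DESeq2 called 1 lower, or 2 without library 2. The median log2 change was -0.09 in both fits, and 7 of the 22 were positive. None of the 8 scavenger receptors tested was called in either fit by edgeR, 1 had an unadjusted p under 0.05, and DESeq2 called 0. Msr1, which binds oxLDL, stood at 99.8 to 117 TPM with tirzepatide and 105 to 115 TPM in the combination (log2 0.07, SE 0.07, adjusted p = 0.701 by edgeR). Cd36 had at most 4 counts and Olr1 at most 5 counts in any library, too few to test.

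Most lysosomal and foam cell genes moved up by small steps, and the 2 lists share members. The lysosome and autophagy list had 40 members tested, with 2 rises and 0 falls with all libraries and 12 and 0 without library 2. The median log2 change was 0.09 and 0.12, and 32 and 35 of the 40 were positive. Lipa, the lysosomal lipase that frees cholesterol from its esters, stood at 234, 221, 220 and 232 TPM with tirzepatide and at 277, 254, 258 and 257 TPM in the combination. Library 2 was with the other combination libraries here (log2 0.23, SE 0.04, adjusted p = 0.00471 by edgeR, and 0.24, SE 0.04). Scarb2, a lysosomal membrane protein, had a library 2 value of 44.6 TPM, within the tirzepatide range of 41.7 to 45.6 TPM, against 52.6 to 55.3 TPM in libraries 1, 3 and 4 (log2 0.24, SE 0.05, and 0.30, SE 0.05). Of 19 foam cell and lipid-associated macrophage genes 3 rose and 0 fell with all libraries, and 8 and 0 without library 2. The median log2 change was 0.11 and 0.13, and 15 and 14 of the 19 were positive. At an unadjusted p under 0.05, 13 were higher and 1 lower, or 12 and 2 without library 2. The 3 called with all libraries were Trem2, Lipa and Plin2, of which Lipa and Plin2 also belong to lists described above. Ctsb, Ctsd and Ctsl, called without library 2, are on the lysosome list too. Trem2, a lipid-sensing receptor of such macrophages, stood at 58.0, 63.5, 60.9 and 54.9 TPM and at 70.7, 65.5, 71.1 and 75.5 TPM, without overlap (log2 0.27, SE 0.07, adjusted p = 0.0412 by edgeR, and 0.30, SE 0.07, without library 2). Lyz1 and Cd14 are on neither list. Lyz1, a lysozyme whose reads may be shared with its near copy Lyz2, rose from 165 to 192 TPM to 252, 208, 253 and 251 TPM (log2 0.43, SE 0.07, and 0.49, SE 0.07, without library 2). Cd14, the co-receptor for endotoxin, passed only without library 2, which had the lowest value of all 8 at 145 TPM (log2 0.38, SE 0.07, adjusted p = 0.00101, against 0.325 with all libraries, by edgeR).

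Interferon-stimulated genes fell, and library 2 moved with the rest for some of the members only. Its level over the whole list lay nearer to the tirzepatide libraries than to the other combination libraries. Of 27 tested, 0 rose and 8 fell with all libraries, and 0 and 11 without library 2. The median log2 change was -0.30 and -0.42, and 26 of the 27 were below 0 in both fits. The mean level over the members of the list was set against the tirzepatide mean on the log2 CPM scale. It was -0.085 to 0.126 in the tirzepatide libraries, -0.61 to -0.41 in combination libraries 1, 3 and 4 and -0.148 in library 2. Irf7, the transcription factor that amplifies interferon production, stood at 57.0, 59.4, 69.0 and 70.9 TPM with tirzepatide and at 35.4, 47.1, 48.3 and 44.1 TPM in the combination. All combination libraries lay below all tirzepatide libraries, and library 2 was the second highest of them (log2 -0.53, SE 0.09, adjusted p = 0.00234 by edgeR, and -0.56, SE 0.10). Oas3, a sensor of double-stranded RNA, stood at 26.5, 28.9, 29.5 and 30.2 TPM and at 15.6, 19.4, 21.98 and 23.01 TPM, again without overlap (log2 -0.51, SE 0.08, adjusted p = 0.00108 by edgeR, and -0.52, SE 0.09). Ifi44, an interferon-induced protein, stood at 22.7, 23.1, 30.1 and 20.7 TPM and at 13.6, 17.35, 15.0 and 14.7 TPM (log2 -0.65, SE 0.10, and -0.73, SE 0.10). Rtp4, which restrains interferon signalling, stood at 35.8, 46.7, 47.3 and 39.1 TPM and at 21.2, 30.9, 19.5 and 22.9 TPM (log2 -0.79, SE 0.14, and -0.96, SE 0.14). Usp18, a negative regulator of the interferon receptor named after its values were seen, fell by 0.44 on the log2 scale (SE 0.07) and by 0.51 (SE 0.08) without library 2. Xaf1, a pro-apoptotic interferon-induced protein, was called lower (log2 -0.54, SE 0.14, adjusted p = 0.0468, and -0.57, SE 0.15, adjusted p = 0.034 without library 2, by edgeR), but it lost the call in 17 of 35 alternatives, among them each tirzepatide library and each of combination libraries 1, 3 and 4 left out. Oasl1, a relative of the Oas enzymes also named after its values were seen, passed only without library 2 (log2 -0.31, SE 0.08).

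The interferon-stimulated response element was searched in the same way. Of the 11 members called without library 2, 7 had an upstream sequence and 1 of these, Oas3, held a match (14.3%), against 2.98% of all promoters. The window lies at chr5:120777695-120777764 with the gene on the minus strand, the match in capitals begins 75 bases before the start, and it is shown as the only member with a match.
Oas3: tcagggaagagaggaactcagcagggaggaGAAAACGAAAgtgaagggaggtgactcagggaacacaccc
Genes of MHC class I presentation, many of which interferon also induces, had 0 rises and 1 fall of 21 with all libraries and 0 and 2 without library 2. B2m, the shared light chain of class I molecules, stood at 844, 878, 872 and 869 TPM and at 770, 794, 695 and 697 TPM, without overlap (log2 -0.21, SE 0.05, adjusted p = 0.0435 by edgeR, and -0.25, SE 0.05, without library 2). Psmb8, a subunit of the immunoproteasome, passed only without library 2 (log2 -0.35, SE 0.10, adjusted p = 0.0413, against 0.0602, by edgeR).

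The position of library 2 thus varied from list to list, as measured over members called without it. It had a median of 0.523 over the 11 interferon-stimulated members, with 6 past the midpoint and values from 0.0568 to 0.905. Over the 12 NRF2 targets the median was 0.0134 with 2 past the midpoint, over the 6 LXR targets 0.0636 with 0, over the 8 cytokines and chemokines 0.147 with 0, over the 7 NF-kB feedback genes -0.11 with 1, and over the 12 lysosomal genes 0.196 with 3. Other lists lay between the lysosomal and the interferon-stimulated values. The median was 0.302 over 6 ATF4 and unfolded protein response genes, with 2 past the midpoint. It was 0.279 over 6 macrophage lineage genes, 0.274 over 3 prostaglandin genes and 0.235 over 4 PPAR and lipid droplet genes. Whether these lists differ in the position of library 2 was not tested, since all values come from 1 library.

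**Figure D3:**
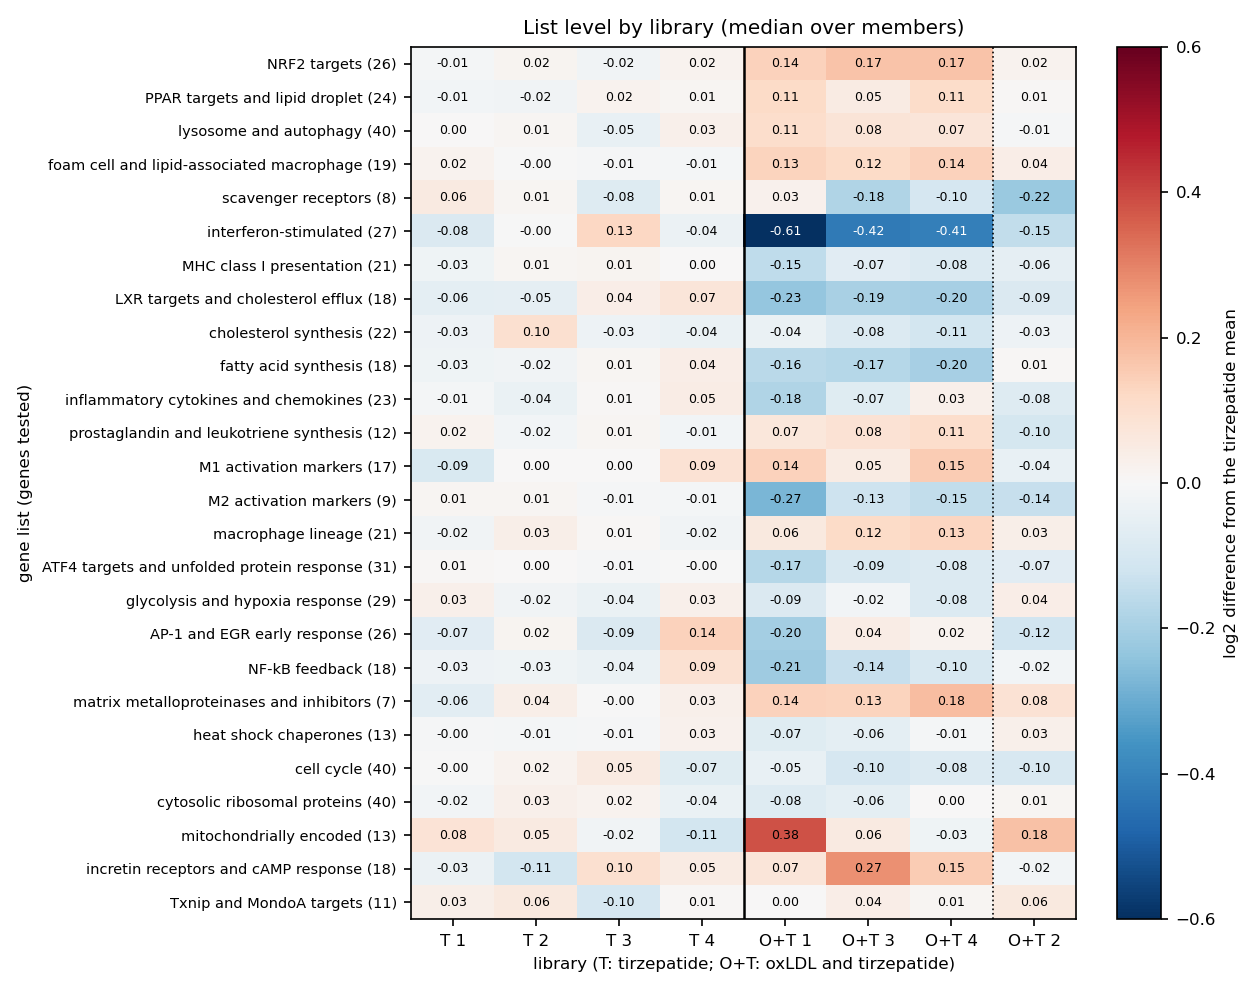
Level of each gene list in each library, as the mean over its tested members (number in brackets) of log2 CPM minus the mean of the 4 tirzepatide libraries. Combination library 2 is the last column. The title printed on the panel names a median, but the values are means. Interferon-stimulated genes are the lowest in combination libraries 1, 3 and 4 (-0.61 to -0.41), NRF2 targets are 0.14 to 0.17 there, and library 2 is near 0 for NRF2 targets (0.02) and fatty acid synthesis (0.01).

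Several further genes of large change belonged to none of these groups. Acy1, an aminoacylase named after its values were seen since it lies under the abundance minimum of 5 TPM, fell from 4.20, 3.42, 4.71 and 3.95 TPM to 1.01, 0.849, 0.866 and 1.43 TPM. All 4 combination libraries, library 2 included, lay far below all tirzepatide libraries (log2 -2.13, SE 0.28, adjusted p = 0.000454 by edgeR, and -2.19, SE 0.32, without library 2). Abhd14a, whose reads may be shared with Acy1, did not pass (log2 -0.39, SE 0.24, adjusted p = 0.473 by edgeR). Cd5l, a protein that macrophages secrete and that modulates lipid synthesis, stood at 5.31, 5.21, 6.31 and 7.82 TPM with tirzepatide and at 1.97, 3.77, 2.97 and 2.80 TPM in the combination, without overlap (log2 -1.07, SE 0.18, adjusted p = 0.00234 by edgeR, and -1.24, SE 0.19). Mmp9, the gelatinase B that degrades matrix, stood at 60.3, 66.9, 64.9 and 76.7 TPM and at 35.5, 49.9, 48.7 and 44.4 TPM (log2 -0.57, SE 0.10, adjusted p = 0.00237 by edgeR, and -0.63, SE 0.10, without library 2). Igf2bp2, an RNA-binding protein, fell in libraries 1, 3 and 4 (5.65, 5.99 and 5.37 TPM) and stood at 10.6 TPM in library 2, within the tirzepatide range of 10.1 to 12.9 TPM (log2 -0.66, SE 0.15, and -0.95, SE 0.11). Edil3, a secreted integrin ligand, rose from 8.16 to 9.38 TPM to 17.4, 16.3 and 15.5 TPM in libraries 1, 3 and 4 and stood at 7.85 TPM in library 2 (log2 0.77, SE 0.14, and 0.97, SE 0.08). The unnamed gene ENSMUSG00000121570 had 0 counts in all 4 combination libraries and 36.9, 65.8, 0 and 310 counts with tirzepatide, at least 134-fold lower against a floor of 3 counts over the group, but 1 tirzepatide library was at 0 as well.

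Among lists that moved little, edgeR called 0 of 40 ribosomal protein genes, 0 of 13 mitochondrially encoded genes, 0 of 13 heat shock chaperones and 0 of 29 glycolytic genes with all libraries. An unadjusted p under 0.05 was seen for 6, 0, 0 and 4 of them, and DESeq2 called 1, 0, 0 and 2. Without library 2, edgeR called 1, 0, 0 and 2, all lower. At an unadjusted p under 0.05 there were then 12, 0, 2 and 10 lower and 0, 0, 1 and 1 higher, and DESeq2 called 4, 0, 0 and 2, all lower. The 13 mitochondrially encoded genes were all positive in both fits (median log2 changes 0.14 and 0.12), beside the shares of counts given above. Of 40 cell cycle genes 0 rose and 1 fell in both fits. It was Ube2c, a ubiquitin-conjugating enzyme of mitotic exit (log2 -0.30, SE 0.06, and -0.32, SE 0.07). At an unadjusted p under 0.05, 10 of the 40 were lower and 0 higher, or 11 and 0 without library 2. DESeq2 called 1 lower and 0 higher in both. ATF4 targets and genes of the unfolded protein response held more calls than the lists above in this paragraph. Of 31 tested, 1 rose and 3 fell, and 1 and 5 without library 2. Slc7a11, described above with the NRF2 targets, was the one that rose, and Wars1, a tRNA synthetase (log2 -0.26, SE 0.05, and -0.30, SE 0.05), and Herpud1, a factor of protein disposal at the endoplasmic reticulum (log2 -0.32, SE 0.06, and -0.41, SE 0.05), were among those that fell. More of these 31 lay lower by small steps. At an unadjusted p under 0.05, 16 were lower and 1 higher, or 19 and 2 without library 2. DESeq2 called 7 lower and 1 higher, or 9 and 2. Over all genes tested, 1564 of 11319 had such an unadjusted p in either direction with all libraries. The median log2 change of the list was -0.11, or -0.12 without library 2.

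The oxLDL effect in the presence of tirzepatide was then set beside the oxLDL effect in its absence. The latter compares 4 oxLDL libraries with 4 control libraries and shares no library with the former. Without tirzepatide oxLDL raised 282 genes and lowered 232. Of the 282, 53 (18.8%) were called higher and 0 lower in the presence of tirzepatide, and 104 (36.9%) and 0 without library 2. These were 61.6% of the 86 and 48.6% of the 214 genes called higher there. Of the 232 lowered genes, 45 (19.4%) were called lower and 0 higher, and 79 (34.1%) and 0 without library 2, which was 51.1% of the 88 and 34.3% of the 230. At an unadjusted p under 0.05, 7 of the 282 were lower and 7 of the 232 higher with all libraries, and DESeq2 called 1 and 0 of these. The 282 had a median log2 change of 0.10 with tirzepatide, or 0.13 without library 2, and of 0.25 in its absence, and 227 or 231 of them were positive. The 232 had medians of -0.16 and -0.18 with tirzepatide and -0.36 in its absence. Over all 11319 genes, 0.76% were called higher in the presence of tirzepatide, 0.78% lower and 49.85% were positive. Without library 2 these shares were 1.89%, 2.03% and 49.74%. Medians in the absence of tirzepatide come from the contrast that chose the genes and are a description. Across all 11319 genes, Pearson's r between the 2 effects was 0.27 in both fits, and genes are not independent replicates. The controls carried more acinar transcripts, 25.1 to 336 TPM over the 30 markers, and 12 of the 14 tested acinar genes are among the 232.

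**Figure D4:**
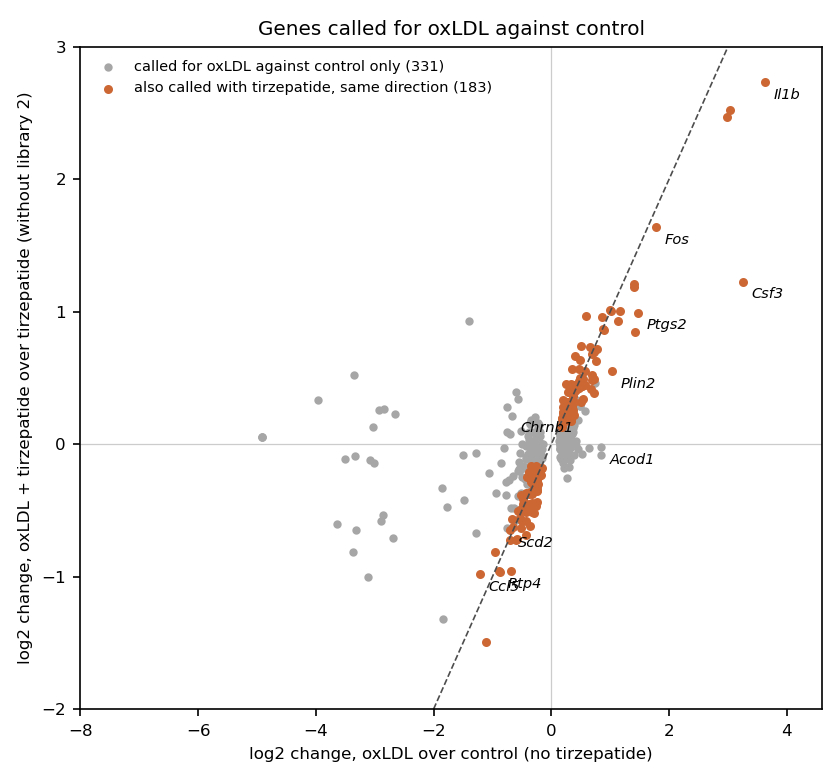
Log2 change of oxLDL over control (x axis) and of oxLDL with tirzepatide over tirzepatide without combination library 2 (y axis) for the genes called for oxLDL against control; orange points were also called with tirzepatide in the same direction and the dashed line marks equal effects. Fos lies near the line, Il1b, Ptgs2, Csf3 and Plin2 lie below it and Acod1 lies at 0 on the y axis, while the points far to the left with y near 0 include the acinar genes.

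The difference between the 2 oxLDL effects was tested in the same fit, and few genes passed. With all libraries 8 of 11319 genes (0.0707%) were called, 5 with the lower oxLDL effect in the presence of tirzepatide and 3 with the higher, and 1168 had an unadjusted p under 0.05. Without library 2, 9 of 11406 (0.0789%) were called. The 8 were Acod1, Plin2, Cxcl2, Nlrp3 and Sema3e, with the lower effect, and Stc1, Chrnb1 and Dixdc1, with the higher. Nlrp3, Chrnb1 and Dixdc1 were named after their values were seen.

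Acod1, which makes the immunometabolite itaconate, had the smallest p. It stood at 12.6 ± 1.16 TPM in control and 22.9 ± 1.52 TPM with oxLDL (SD, n = 4 each). With tirzepatide it stood at 26.6, 24.0, 22.7 and 23.4 TPM and in the combination at 24.0, 23.3, 22.7 and 23.9 TPM. The last 2 groups overlapped wholly and library 2 was not apart. The log2 difference of the effects was -0.87 (SE 0.11, adjusted p = 0.000704 by edgeR) and -0.87 (SE 0.12, adjusted p = 0.00255 by edgeR) without library 2, while the oxLDL effect with tirzepatide was -0.02 (SE 0.08). Plin2 rose with oxLDL in both settings, from 341 ± 25.3 to 711 ± 14.4 TPM without tirzepatide and from 506 ± 12.5 to 740.0 ± 40.0 TPM (SD, n = 3) in combination libraries 1, 3 and 4, a log2 difference of -0.59 (SE 0.11, adjusted p = 0.0221 by edgeR) and -0.48 (SE 0.07, adjusted p = 0.00318 by edgeR) without library 2. Cxcl2 rose from 209 ± 5.97 to 303 ± 23.8 TPM without tirzepatide and stood at 286 ± 17.1 TPM with it and 267 ± 49.9 TPM in libraries 1, 3 and 4, a log2 difference of -0.70 (SE 0.12) and -0.60 (SE 0.11). Sema3e, a guidance ligand, stood at 73.3 ± 6.48 TPM in control, 86.0 ± 4.26 with oxLDL and 96.4 ± 3.54 with tirzepatide (SD, n = 4), and at 79.6, 84.4, 88.9 and 84.8 TPM in the combination (log2 difference -0.40, SE 0.07, in both fits). Nlrp3, the sensor of the inflammasome that matures interleukin-1 beta, rose from 30.003 ± 3.03 to 41.3 ± 2.69 TPM without tirzepatide, and stood at 38.1 to 49.6 TPM with tirzepatide and 37.5 to 51.6 TPM in the combination (log2 difference -0.42, SE 0.08, adjusted p = 0.0356 by edgeR, and 0.0569 without library 2).

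Stc1, which encodes the secreted glycoprotein stanniocalcin-1, fell with oxLDL from 25.2 ± 0.581 to 19.7 ± 1.47 TPM in the absence of tirzepatide and stood at 17.1 to 19.5 TPM with tirzepatide and 18.7 to 21.8 TPM in the combination (log2 difference 0.53, SE 0.09, adjusted p = 0.0221 by edgeR). Chrnb1, a subunit of the muscle acetylcholine receptor, had log2 differences of 0.84 (SE 0.16) and 0.88 (SE 0.16) without library 2. Dixdc1, a modulator of Wnt signalling, had a log2 difference of 0.47 (SE 0.09), with adjusted p = 0.0347 by edgeR and 0.0569 without library 2. Leaving out controls 1 and 2, which carried the most acinar transcripts, left Acod1, Plin2, Cxcl2 and Sema3e called and 5 genes in all. Without control 2, oxLDL library 2, oxLDL library 3 or tirzepatide library 1, taken one at a time, Acod1 alone was called. Ptgs2, Csf3 and Lcn2 were called for the difference only without library 2. The oxLDL effect on Csf3 was then smaller with tirzepatide by 2.03 on the log2 scale (SE 0.34, adjusted p = 0.0125 by edgeR), with 0.852 ± 0.390 TPM in control, 8.29 ± 0.961 with oxLDL, 4.36 ± 0.703 with tirzepatide (SD, n = 4) and 10.2 ± 1.52 in combination libraries 1, 3 and 4 (SD, n = 3). For Ptgs2 the log2 difference was -0.48 (SE 0.09) and for Lcn2 -0.58 (SE 0.11). Il1b had a log2 difference of -1.24 (SE 0.58, adjusted p = 0.455 by edgeR) and -0.90 (SE 0.30, adjusted p = 0.26) without library 2, and did not pass. A gene that missed the threshold is not shown to respond alike in the 2 settings.

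**Figure D5:**
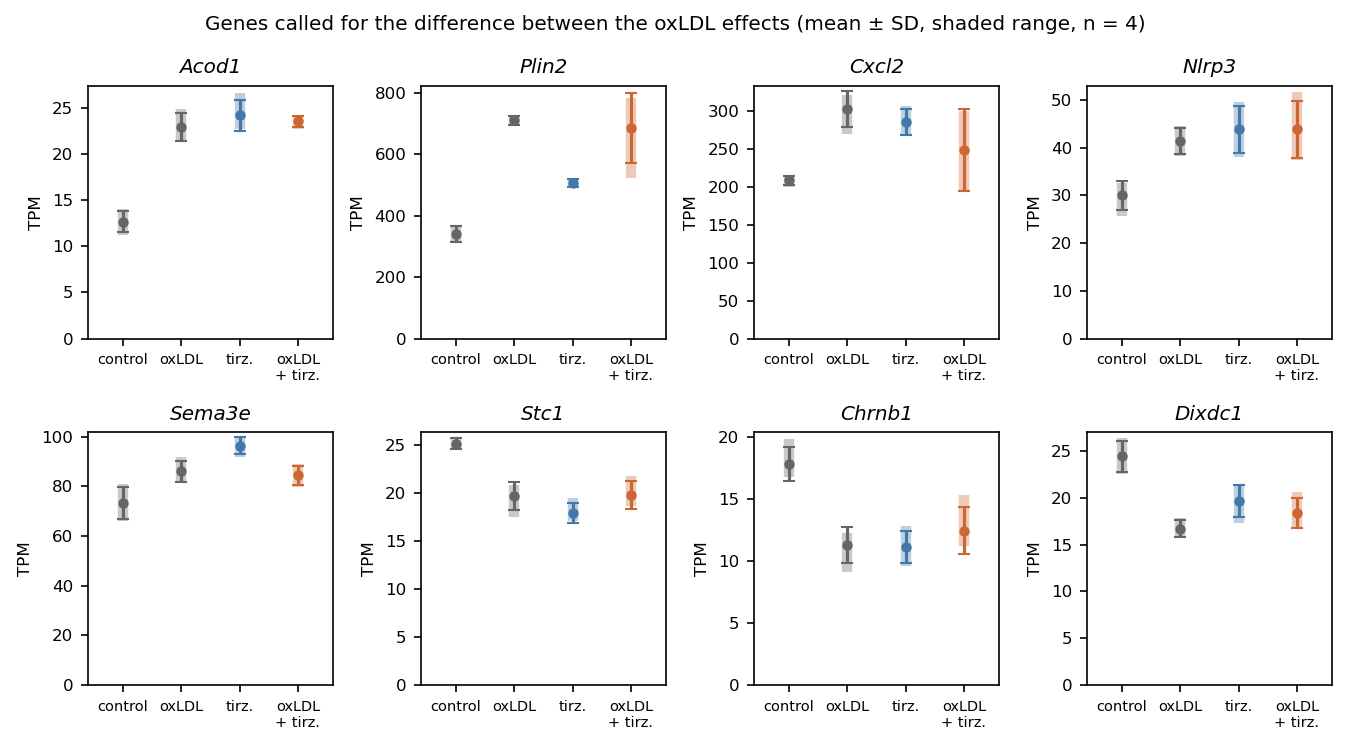
TPM of the 8 genes called for the difference between the oxLDL effects in control, oxLDL, tirzepatide and oxLDL with tirzepatide (points and bars, mean ± SD; shaded, the range; n = 4 each, library 2 included). Acod1 is 12.6 TPM in control and near 23 to 24 TPM in the other groups.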

How the data were processed

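Transcripts were sequenced in 16 libraries, and the main comparison takes the 8 that received tirzepatide. The deposited table holds expected counts, which the authors estimated per gene and library with RSEM, beside TPM values that the authors deposited, for 21965 genes. Tools named in the submitters' processing notes are RSEM, Bowtie2 2.2.8, fastp 0.18.0 and StringTie 1.3.1, and the builds GRCm39 and mm39; the annotation release is not given in the sources used here. Promoter sequences came from RefSeq on GRCm38.p6, so no coordinate is tied to the deposited table.

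After rounding, the expected counts went into edgeR 4.0.16 under R 4.3.3 (TMM, filterByExpr at a minimum count of 10, glmQLFit and glmQLFTest), with all 16 libraries fitted together and each group given its own mean, and p-values were adjusted by Benjamini-Hochberg over all genes tested; no fold threshold was set. The biological coefficient of variation was 0.0633, or 0.0618 without combination library 2. TPM served to show levels; log2 changes come from the counts.

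Named genes were up to 12 each way of those called, taken by size of log2 change where the higher group averaged 5 TPM or more, up to 8 more each way from the fit without library 2, up to 3 called members of each list, 26 fixed genes and up to 5 genes of the difference test; not all are printed, and genes outside the rule are marked as such. The comparison, the lists and the rule were chosen with earlier results of these data known. Replicate libraries differed by more than counting error (chi-square per degree of freedom 2.71 to 11.1). Deviations of tirzepatide and combination libraries of the same number had correlations of 0.059, -0.048, -0.129 and -0.030 over all genes. These values cannot settle whether libraries of the same number share a source of variation. The main fit did not take the numbers as pairs, and a block on number raised its calls from 174 to 378. The alternatives tried were a block on replicate number, the 2 groups alone, DESeq2 1.42.0 or its size factors, quantile normalization with limma 3.58.1, other filters and each library left out; leaving out pairs of libraries was chosen after seeing the data. One member of the cholesterol synthesis list is not reported here.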

Additional observations from a re-analysis of the deposited data

Results flagged for a closer look

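The highest or lowest library of a group was set against the other 3 by Dixon's ratio, over the genes named in the text. Of 164 groups of 4 looked at, 17 held a library past its 95% critical value for 4 samples. Chance flags about 1 in 20 only where genes are not chosen by these values. Part of the named genes were chosen from the fit without combination library 2, so its flags follow in part from that choice. Combination library 2 was that library in 7 of the 17. Its value was 3.91 TPM for Il1b (others 23.2 to 25.9), 234 TPM for Clec4d (others 350 to 371), 228 TPM for Scd2 (others 144 to 150), 4.42 TPM for Mttp (others 6.38 to 6.65), 116 TPM for Slc7a11 (others 151 to 153), 10.6 TPM for Igf2bp2 (others 5.37 to 5.99) and 208 TPM for Lyz1 (others 251 to 253). Among tirzepatide libraries, library 4 was far from the others for Nos2 (74.8 TPM), Il6 (3.17 TPM), Scd2 (272 TPM) and Tnip1 (198 TPM). Tirzepatide library 3 was so for Crem (16.5 TPM) and Edil3 (9.38 TPM), and tirzepatide library 1 for Ptgs2 (101 TPM). The flags for Glp1r (0.043 TPM in combination library 1 and 0.051 TPM in tirzepatide library 1) and Mrc1 (0.024 TPM in tirzepatide library 4) rest on 1 or 2 counts.

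The oxLDL effect differed by the test of the difference itself for 8 genes, with log2 differences of -0.87 for Acod1, -0.59 for Plin2, -0.70 for Cxcl2, -0.42 for Nlrp3, -0.40 for Sema3e, 0.53 for Stc1, 0.84 for Chrnb1 and 0.47 for Dixdc1. Acod1 was called in all of its 33 alternatives, while Nlrp3 was called in 11 of 34 and Dixdc1 in 15 of 34.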

How the results depend on the processing

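Counts of called genes moved with the processing, and the directions of the named genes did not, apart from the values near 0 given below; the causes were not tested unless the alternative's own construction (fewer libraries or groups) shows them. Of 53 named genes called with all libraries, 26 were called under every alternative: Il1b, Fos, Clec4e, Clec4d, Plin2, Cpt1a, Hmox1, Slc7a11, Esd, Lipa, Lyz1, Edil3, Tnf, Ccl3, Ptgs1, Abca1, Scd2, Ifi44, Oas3, Irf7, Usp18, Rtp4, Cd5l, Mmp9, Wars1 and Acy1. Over all named genes and alternatives, 2228 of 2573 values kept their direction and side of the threshold, 176 lost the call, 163 gained one and 6 changed sign, all of the last for genes not called (Cxcl2 at 0.052, Acod1 with -0.053 to 0.028 over 1 library left out and 0.018 and 0.028 where library 2 was left out too, and Klf10 at -0.0090). The main comparison's 174 calls (86 higher, 88 lower) became 107 (50 and 57) with only its 2 groups fitted, 282 without a filter (160 lower) and 319 with DESeq2 (162 and 157). Leaving out 1 library gave 58 to 444 calls, 26 to 214 higher and 31 to 230 lower; the highest came without combination library 2, the lowest totals without combination libraries 4 and 1. Without library 2 the counts were 406 (201 and 205) with 2 groups, 549 (254 and 295) unfiltered and 582 (280 and 302) with DESeq2, and a further library left out gave 245 to 385, 121 to 181 and 124 to 204. The replicate block takes libraries of the same number as pairs, although the labels tie them by number alone. With it there were 378 calls (168 and 210), or 611 (271 and 340) without library 2. The mitochondrial share of counts was higher in libraries 1 and 2 than in 3 and 4 of every group, and what lies behind it was not tested. The 8 calls for the difference of the oxLDL effects became 29 under the replicate block, 39 unfiltered, 57 with DESeq2, 5 without controls 1 and 2 and 1 to 16 with 1 library left out (1 without control 2, oxLDL 2, oxLDL 3 or tirzepatide 1). Without library 2 they were 39, 84 and 98 for the first 3 and 5 to 13 with a further library left out. Genes shared with oxLDL against control rose from 53 to 104 and from 45 to 79 without library 2. Depth limits genes with few counts, such as Glp1r, Arg1, Mrc1, Cd36 and Olr1.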
